A study of Mus musculus with 35 samples.

Results

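CD8+ resident memory T cells sorted from the small intestine were set against whole small intestine of the same study. The comparison used the 9 arrays labelled as one of these groups, of 35 arrays in the series: 6 of sorted CD8+ Trm cells (CD8+ resident memory T cells) and 3 of whole small intestine. All were 1-colour mouse oligonucleotide arrays. The donors were female C57BL/6 mice, healthy and wild type, between 8 and 16 weeks of age. For the Trm group, dissociated tissue was separated on a 40% and 80% Percoll gradient, and magnetic beads took cells bearing CD8b and, in a second round, CD103, an integrin chain whose ligand is E-cadherin. The whole small intestine controls were dissociated and not sorted, so they hold epithelium, stroma and the gut's own lymphocytes. The gradient is listed for all samples alike, so whether these controls passed through it cannot be told. No label ties an array to an animal, so the p-values here reflect only the spread between samples, which may be technical. Each of the 9 arrays lay on a slide of its own, with Trm cells and whole tissue on different slides, so slide and group cannot be told apart.

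The small intestine is lined by a single layer of epithelium that digests and absorbs food, secretes mucus, antimicrobial peptides and hormones, and is renewed from stem cells in the crypts. CD8+ T cells lie between the epithelial cells and in the tissue beneath them. They are recruited by the chemokine CCL25 through its receptor CCR9 and by the integrin alpha4beta7, and held in the epithelium by CD103 paired with the beta7 chain. Resident memory cells stay in the tissue without recirculating, and CD69 is the surface protein most often used to recognise them.

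Levels are given as log2 of the scanner's processed intensity minus the 75th percentile of the same array, over the 6260 probes well above background on all 9 arrays. A level of 0 is therefore the 75th percentile, and a difference of 1 is 2-fold. Levels are compared between arrays for 1 probe at a time, never between genes. Between 21.7% and 35.5% of probes were well above background on the Trm arrays, and between 29.3% and 40.7% on the whole-tissue arrays. Whole-intestine array 3 stood apart from whole-intestine arrays 1 and 2: it was over 2 log2 units below both for 443 genes and above both for 315, against 12 and 13 genes in all for the other whole arrays. Trm array 2 had the lowest summed signal of 5 of the 7 T cell lists below, the highest of the circulation list, and the highest of several other cell types. In RNA from a mixed tissue, fewer cells of a type and less RNA per cell cannot be told apart.

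Of 8550 genes tested, 3652 differed between Trm cells and whole intestine at an adjusted p under 0.05 (limma, Benjamini-Hochberg), which is 42.7% of those tested. In Trm cells 1683 genes (19.7%) were higher and 1969 (23.0%) were lower. The median difference over all tested genes was -0.04. Scaling over all probes put that median at -0.22 and the share of higher genes among the calls at 37.2%, against 46.1% here. The 2 groups did not overlap for 3481 genes (40.7%). Of the lower genes, 595 (6.96% of those tested) were above background on none of the Trm arrays. Of the higher genes, 1192 (13.9%) were above background on every Trm array and 190 (2.22%) on none of the whole-tissue arrays. The counts of list members below are to be read against these shares. Members too dim in both groups were not tested, so counts and medians describe those that passed the filter. A member bright in only 1 group passed through that group alone, which largely fixed its direction in advance. Where none of a list's members was called in a direction, the count was also 0 at an unadjusted p under 0.05 in limma, except for macrophage (2 higher), neuron (2 higher) and MHC class II genes (1 lower).

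**Figure D1:**
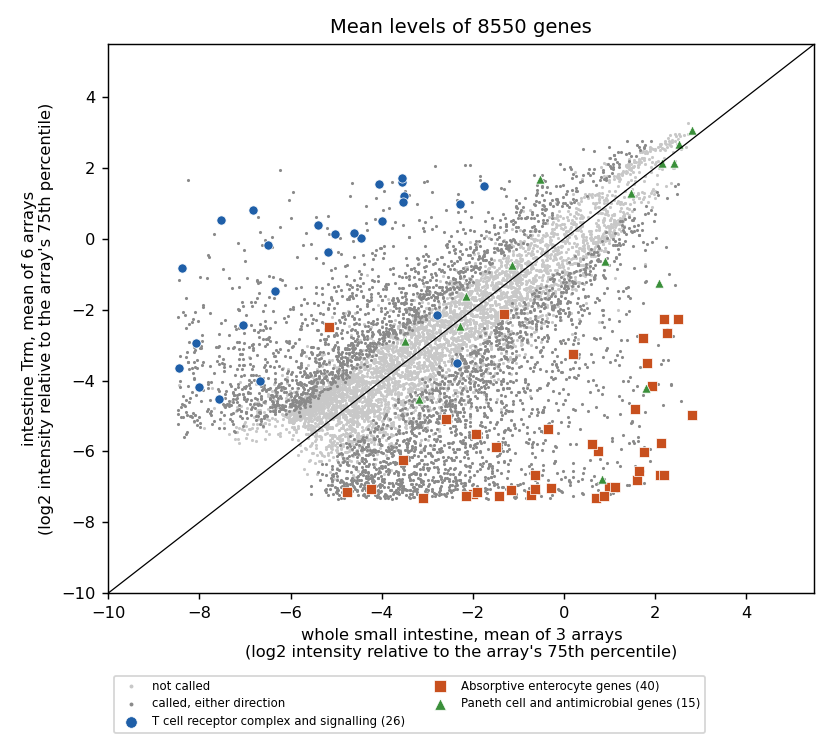
Mean level of each of the 8550 tested genes in whole small intestine (horizontal axis, mean of 3 arrays) and in intestine Trm cells (vertical axis, mean of 6 arrays), both as log2 intensity relative to the array's 75th percentile, with the line of equal levels. T cell receptor genes (blue circles) lie mostly above the line, enterocyte genes (orange squares) mostly below it, and most Paneth cell genes (green triangles) close to it.

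The genes that define the labelled cell type were read first. Cd8b1, the chain of the CD8 co-receptor used for the first sort, lay at -1.87, -0.73 and -0.07 on the Trm arrays (here and below the lowest, median and highest of 6). On whole-tissue arrays 1 to 3 it lay at -7.98, -7.87 and -9.32, above background on none of them. The groups did not overlap, and the fitted difference was 7.58 ± 0.48 (SE, adjusted p = 1.7e-06 by limma), at least 40.6-fold. That bound takes, for each whole-tissue array, its dimmest signal still well above background. Cd3e, a signalling chain of the T cell receptor complex, lay at 0.56, 0.99 and 1.79 in Trm cells and at -3.59, -3.97 and -3.06 in whole intestine. It was above background on all 9 arrays, without overlap, and higher in Trm cells by 4.57 ± 0.34 (SE, adjusted p = 4.8e-06 by limma). Cd4 did not differ at the threshold (0.65 ± 0.55, adjusted p = 0.347 by limma), with Trm levels of -3.23 to -1.31 and whole-tissue levels of -3.39 to -1.96. Itgae, which encodes CD103, had no probe matched to it, so the second sort could not be checked.

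Genes of the T cell receptor complex and its signalling rose together. Of 29 members, 26 were tested (3 were too dim in both groups), 24 were higher in Trm cells and none was lower, with a median difference of 4.79. The median was 4.65 with genes never detected in whole tissue set at their lower bound. Cd2, an adhesion and co-stimulatory receptor, differed by 8.06 ± 0.42, and Cd6, which tunes receptor signalling, by 7.62 ± 0.51 (adjusted p = 6.6e-07 and 2.3e-06). Ptprc, the CD45 phosphatase of all white cells, differed by 4.86. The members not called were Cd4 and Lax1, an adaptor that restrains receptor signalling. Lax1 is 1 of the genes for which whole-intestine array 3 lay more than 2 log2 units apart from the other whole arrays. Without that array it was called lower, at -2.89 (adjusted p = 0.00167 by limma) against -1.17 with all arrays. Summed over the list, the signal in Trm cells was 948% to 2191% of the whole-tissue mean, lowest on Trm array 2.

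Among the genes of tissue residency and gut homing, 37 in all, 31 were tested, 25 were higher in Trm cells and none was lower. The median difference was 3.15. Ccr9, the receptor for the small-intestinal chemokine CCL25, lay at -0.14, 0.78 and 0.97 in Trm cells and at -5.14, -5.25 and -7.58 in whole intestine. All 6 Trm arrays lay far above all 3 whole arrays (difference 6.57 ± 0.54, adjusted p = 8.9e-06 by limma). Itgb7, the beta7 chain shared by CD103 and the gut-homing integrin, lay at 1.71, 2.12 and 2.43 against -1.89, -2.42 and -1.89. It was above background on all 9 arrays, without overlap, and differed by 4.15 ± 0.29 (adjusted p = 3.0e-06). Cd69, which keeps cells in tissue by opposing the egress receptor S1PR1, lay at -2.11, -1.10 and -0.13 against -8.04, -7.94 and -9.38. It was above background on no whole-tissue array, so its difference of 7.28 ± 0.49 corresponds to at least 31.7-fold (adjusted p = 2.4e-06). Icos, a co-stimulatory receptor, and Gpr171, a G-protein-coupled receptor of lymphocytes, were the members with the largest differences, 7.81 and 7.35.

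Ahr and Runx3, transcription factors of residency, rose. Ahr, the ligand-activated factor that intraepithelial lymphocytes need for their upkeep, lay at -3.50, -1.95 and -1.15 in Trm cells and at -5.29, -4.91 and -3.75 in whole intestine. The lowest Trm array and the highest whole array were separated by little, and the difference was 2.46 ± 0.54 (adjusted p = 0.0044 by limma). Runx3, which drives CD8 and CD103 expression, was above background on 3 of 6 Trm arrays and on no whole array, a rise of at least 2.21-fold (adjusted p = 0.00103). Pdcd1, Dusp6 and Fosl2 had fitted differences of -1.37, -0.42 and -0.13 and were not called. Pdcd1 was called lower without whole-intestine array 3 (-2.98, adjusted p = 0.0095 by limma).

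Cxcr6, the receptor for the epithelial chemokine CXCL16, lay at -1.03, 0.36 and 0.88 in Trm cells and at -5.28, -6.19 and -5.48 in whole intestine, a difference of 5.82 ± 0.47 (adjusted p = 7.9e-06). Its promoter is shown with that of Gzmb, which encodes the cell-killing protease granzyme B, because both genes rose in Trm cells and both hold the core letters bound by RUNX factors. The sequences are the 250 bases before the start site from RefSeq (GRCm38.p6), at chr9:123806227-123806476 on the plus strand for Cxcr6 and chr14:56262335-56262584 on the minus strand for Gzmb, 5′ to 3′ along the gene. Capitals mark TGTGGT or its reverse complement.
Cxcr6: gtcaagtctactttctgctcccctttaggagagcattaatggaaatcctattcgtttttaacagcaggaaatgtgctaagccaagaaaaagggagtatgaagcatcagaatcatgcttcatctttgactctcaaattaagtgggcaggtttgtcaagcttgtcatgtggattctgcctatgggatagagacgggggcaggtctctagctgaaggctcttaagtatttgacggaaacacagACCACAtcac
Gzmb: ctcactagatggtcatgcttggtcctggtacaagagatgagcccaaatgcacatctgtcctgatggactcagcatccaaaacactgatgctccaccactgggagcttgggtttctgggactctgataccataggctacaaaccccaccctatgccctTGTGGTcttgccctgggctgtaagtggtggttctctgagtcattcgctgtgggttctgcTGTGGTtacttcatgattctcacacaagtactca
Counted from the start site, the letters begin at -10 in Cxcr6, on the reverse strand, and at -93 and -34 in Gzmb. Searched on both strands, TGTGGT was present in 15.9% of the 27025 genes with a promoter sequence and in 13.5% of the tested genes that had one. It was present in 17 of 24 cytotoxic genes (70.8%), 7 of 22 residency genes (31.8%) and 6 of 37 enterocyte genes (16.2%). In the other T cell lists the share was 47.1% for receptors of epithelial ligands, 27.8% for the T cell receptor list, 14.3% for cytokine receptors, 13.3% for circulation genes and 10.5% for transcription factors, and none of 35 immediate early genes held it. In the lists of other cell types the share ranged from 0% of goblet, endothelial, and neuron and glia genes to 28.6% of 7 MHC class II genes. It was 25% for Paneth and for neutrophil genes. These are matches of letters, and no binding was measured. List shares here and below count every member with a promoter sequence, tested or not.

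The cytotoxic genes, 30 in all, comprised 19 tested members, of which 17 were higher in Trm cells and none was lower, with a median difference of 4.55. That median was 3.82 with members at their lower bounds. Gzmb lay at -4.35, 0.90 and 1.43 in Trm cells and at -5.79, -4.70 and -3.37 in whole intestine. The overlap came from Trm array 2 alone, and the difference was 4.55 ± 1.20 (adjusted p = 0.0116 by limma, and 0.0552 without whole-intestine array 1). Gzma, another granzyme, was high in both groups, at 0.23, 2.44 and 3.27 against 1.32, 1.35 and 1.96. It was not called (0.68 ± 0.57, adjusted p = 0.341 by limma), and without Trm array 2 it was called at 1.08 (adjusted p = 0.0236). Cd244a, named after its value was seen, was the other member not called (1.38, adjusted p = 0.0659). Prf1, which forms the pores through which granzymes enter, rose at least 3.33-fold. The cytokine Ifng rose at least 13.4-fold (adjusted p = 0.00293), with Trm levels from -6.32 to -0.44. The chemokine Ccl4 was above background on all 9 arrays and differed by 6.07 (adjusted p = 1.1e-05).

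**Figure D2:**
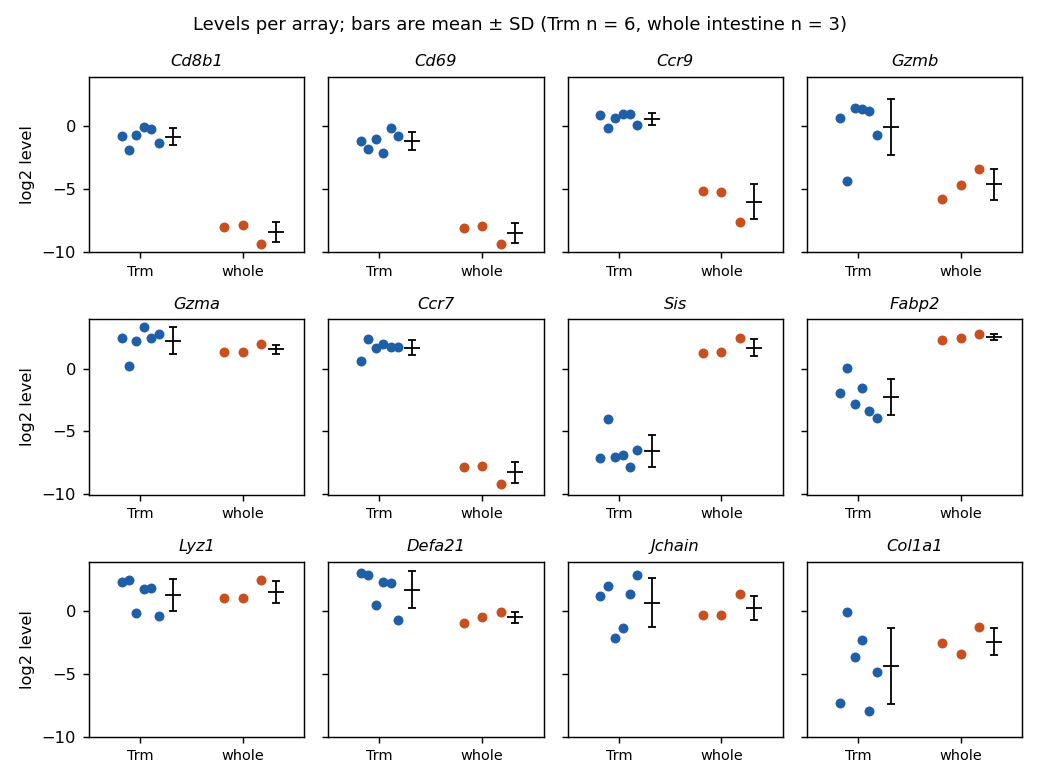
Levels of 12 genes on each of the 9 arrays, as log2 intensity relative to the array's 75th percentile, with 6 Trm and 3 whole-intestine arrays per panel and the mean ± SD beside each group. Cd8b1, Cd69, Ccr9 and Ccr7 are higher on every Trm array, Sis and Fabp2 are lower on every Trm array, and Gzma, Lyz1, Jchain and Col1a1 overlap.

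Genes better known for circulation and lymph node entry were also higher in the sorted cells than in whole tissue. Of 21 members, 15 were tested, 9 rose and 2 fell, with a median difference of 4.94, or 3.01 with members at their lower bounds. Ccr7, the receptor that guides cells into lymph nodes, lay at 0.61, 1.72 and 2.35 in Trm cells and at -7.82, -7.76 and -9.19 in whole intestine, where no array was above background. The fitted difference of 9.92 ± 0.44, the largest of all 8550 genes tested, corresponds to at least 227-fold (adjusted p = 4.2e-07 by limma). Klf2, the factor that switches on egress genes, lay at 0.19, 0.88 and 1.56 against -4.22, -4.88 and -3.94, and differed by 5.27 ± 0.37 (adjusted p = 3.1e-06). Its target S1pr1, which senses the exit signal, rose at least 16-fold (adjusted p = 2.0e-05). Satb1, a chromatin organiser of T cells, and Tcf7, a factor of naive and memory T cells, rose at least 17-fold and at least 14.9-fold. Il7r, the survival receptor of memory cells, differed by 5.90. Ccr7, Klf2 and S1pr1 serve recirculation, and their signal in the sorted cells goes against the name Trm, which comes from the labels. Whether other T cells were among the sorted cells was not tested. The 2 members that fell were Itga6 (-2.29 ± 0.58, adjusted p = 0.00914) and S100a6 (-1.71, adjusted p = 0.0201), which epithelium also expresses. S100a6 was not called without whole-intestine array 1 (adjusted p = 0.0699) or array 2 (0.0623). The median of this list on single arrays, relative to the whole-tissue mean, was 2.32 on Trm array 1 and 4.54 to 5.43 on the other 5.

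Lymphocyte transcription factors numbered 26, of which 21 were tested, 14 rose and 1 fell (median difference 2.38). Stat4, which relays interleukin-12 signals, rose at least 49.9-fold, Batf differed by 5.84, Ets1 rose at least 7.13-fold and Fli1 at least 6.36-fold. Tbx21, the T-bet gene of effector cells, did not pass the threshold (-0.23, adjusted p = 0.547). None of these factors was lower without whole-intestine array 1 or array 2, 3 were without whole-intestine array 3, and 2 were without Trm array 1. Of 20 cytokine receptor genes, 14 were tested, and 9 rose with none lower, or 2 lower without whole-intestine array 3. Il21r and Il2rg, the interleukin-21 receptor and the common gamma chain, rose at least 32.7-fold and at least 15.3-fold, and Tnfrsf18, the GITR co-stimulatory receptor, differed by 6.35.

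Immediate early and heat shock genes respond within minutes to receptor signals and also to tissue handling. Of 41 such genes, 35 were tested, 28 rose in Trm cells and 1 fell, with a median difference of 2.22. Fosb, a partner of JUN in the AP-1 factor, lay at 0.50, 1.41 and 2.06 against -5.82, -7.03 and -4.98, and differed by 7.25 ± 0.50 (adjusted p = 2.9e-06 by limma). Nr4a1, induced by T cell receptor signalling, differed by 7.13, and the phosphatase genes Dusp2 and Dusp1 by 5.82 and 5.28. Fos itself was above background in whole intestine too and differed by 2.31 ± 0.34 (adjusted p = 4.3e-04). The member that fell was Klf4 (-2.41, adjusted p = 0.00648), a factor of differentiated epithelium. The summed signal of the list was 269% to 490% of the whole-tissue mean on the Trm arrays. Per the labels the whole tissue was dissociated as well. The part of handling in these levels was not tested.

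Outside the lists, the called genes with the largest rise included Ramp3, a partner protein of G-protein-coupled receptors, at 1.74, 1.90 and 2.22 in Trm cells and -7.00, -4.94 and -6.77 in whole intestine. Its difference was 8.16 ± 0.43 (adjusted p = 6.7e-07 by limma), and its level in Trm cells was 1.93 ± 0.17 (SD, n = 6). Emb, the lactate-transporter partner embigin, differed by 7.34 ± 0.60 (adjusted p = 9.0e-06).

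Genes of the absorptive enterocyte, the cell that digests and takes up nutrients, were far lower in Trm cells. Of 45 members, 40 were tested, 38 fell, 1 rose and 1 was not called (Dgat1, -0.83, named after its value was seen). The median difference was -5.87, or -4.59 with members at their bounds, and 23 of the members that fell were above background on no Trm array. Lct and Sis, which encode the brush-border sugar-splitting enzymes lactase and sucrase-isomaltase, and Apoa4, an apolipoprotein packed with absorbed fat, are shown with their promoters because they carry this loss. Each sequence is the 250 bases before the start site (RefSeq, GRCm38.p6), at chr1:128328319-128328568 (minus strand) for Lct, chr3:72967864-72968113 (minus strand) for Sis and chr9:46240594-46240843 (plus strand) for Apoa4, 5′ to 3′ along the gene. Capitals mark letters bound by factor families with members in the intestinal epithelium, on either strand. TTTATG is bound by CDX proteins, AGATAA by the zinc-finger family that includes Gata4, and CAAAGTTCA, or the variant CAAAGTCCA, by HNF4.
Lct: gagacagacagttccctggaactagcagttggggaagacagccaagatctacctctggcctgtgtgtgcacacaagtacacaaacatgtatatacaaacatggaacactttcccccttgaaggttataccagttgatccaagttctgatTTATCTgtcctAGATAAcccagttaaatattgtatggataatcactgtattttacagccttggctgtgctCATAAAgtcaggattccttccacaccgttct
Sis: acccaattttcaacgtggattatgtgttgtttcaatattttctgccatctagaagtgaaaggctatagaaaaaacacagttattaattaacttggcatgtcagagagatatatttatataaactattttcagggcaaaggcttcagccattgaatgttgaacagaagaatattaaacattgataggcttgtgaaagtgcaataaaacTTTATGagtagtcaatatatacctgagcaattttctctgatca
Apoa4: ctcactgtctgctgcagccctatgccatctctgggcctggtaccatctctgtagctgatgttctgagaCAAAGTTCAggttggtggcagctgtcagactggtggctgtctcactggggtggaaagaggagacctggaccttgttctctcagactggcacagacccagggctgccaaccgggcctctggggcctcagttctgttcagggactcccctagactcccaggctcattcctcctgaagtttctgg
Counted from the start site, a reverse TTTATG begins at -31 in Lct, with AGATAA at -90 and, reversed, at -101. In Sis TTTATG begins at -43, and in Apoa4 CAAAGTTCA begins at -182. TTTATG was found in 8 of 37 enterocyte promoters (21.6%) against 12.4% of all genes with a promoter and 7.89% of the tested genes with one. In the other epithelial lists its share ranged from 6.25% of 32 xenobiotic genes to 25% of 8 goblet cell genes. In lists that are not epithelial its share ranged from 0% of 18 T cell receptor genes to 20% of 10 neuron and glia genes. It was 17.1% of 35 immediate early genes. AGATAA was found in 7 of 37 enterocyte promoters (18.9%, against 11.4% and 7.80%). Its share was higher in several lists that are not epithelial, at 22.2% of 18 T cell receptor genes, 27.3% of 11 erythroid genes, 28.6% of 7 MHC class II genes and 31.2% of 16 neutrophil genes. The HNF4 letters were in 4 of 37 (10.8%, against 0.836% and 0.891%). In other lists their share ranged from 0% of 18 T cell receptor genes to 13.3% of 15 epithelial ligand genes, with 7.14% of 14 cytokine receptor genes. GGAAGT, the ETS letters, was searched as well and is in 6 of 37 (16.2%, against 22.2% and 26.7%). None of the marked matches overlap.

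Lct lay at -7.89, -7.04 and -4.32 in Trm cells and at 2.09, 1.93 and 2.59 in whole intestine. No Trm array was above background, and the fall of 8.88 ± 0.66 on the log2 scale corresponds to at least 148-fold (adjusted p = 4.5e-06 by limma). Sis lay at -7.80, -6.95 and -4.03 against 1.22, 1.28 and 2.43, at least 98.6-fold lower (adjusted p = 1.3e-05). In both genes the highest Trm value was that of Trm array 2. Apoa4 lay at -6.77, -6.04 and -4.77 against 0.34, 0.58 and 1.35, at least 54.4-fold lower (adjusted p = 3.1e-06). Rbp2, which carries vitamin A inside enterocytes, was at least 98.2-fold lower and Apoc3 at least 138-fold lower.

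Some enterocyte RNAs remained above background in the sorted cells. Fabp2, the abundant intestinal fatty acid carrier, lay at -3.90, -2.39 and 0.07 in Trm cells and at 2.30, 2.42 and 2.77 in whole intestine. It was above background on all 6 Trm arrays and fell by 4.75 ± 0.75 (adjusted p = 6.4e-04 by limma), without overlap. Vil1, the microvillus protein villin, was above background on 4 Trm arrays and fell by 6.36 (adjusted p = 2.3e-04). Fabp6, the ileal bile acid carrier, was the member that rose, at -4.74, -2.77 and -0.32 against -4.37, -5.08 and -6.03. Its groups overlapped (2.68 ± 0.91, adjusted p = 0.0364). It was not called without Trm array 3 (adjusted p = 0.0582), Trm array 4 (0.0612), or whole-intestine array 1 (0.0531), 2 (0.0883) or 3 (0.117). Summed over the list, the enterocyte signal on the Trm arrays was 1.57% to 6.77% of the whole-tissue mean, highest on Trm array 2. Of the 44 enterocyte genes with a probe, 17 were above background on some intestine Trm array. The number was 8 on blood Tem arrays (effector memory T cells), 13 on lung Trm arrays and 14 on the 5 liver Trm arrays.

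Genes for handling drugs, toxins and bile acids fell with the enterocyte genes. Of 35 members, 28 were tested, 25 fell and none rose, with a median difference of -6.59, or -5.29 at the bounds. Of those tested, 18 were above background on no Trm array, so they could hardly rise. The cytochrome P450 genes Cyp2d26 and Cyp2b10 were at least 109-fold and at least 68-fold lower in Trm cells, and Adh1, an alcohol dehydrogenase, at least 86.8-fold lower. Cyp2d26 lay at -7.43, -6.99 and -6.22 in Trm cells and at 1.68, 1.63 and 1.96 in whole intestine. The members not called were Gsta4 (0.17), Nr1i3 (0.23) and Abcb1a (-0.88), an efflux pump that T cells also express and that was named after its value was seen. Nr1i3 had probes that disagreed, and their mean gave -1.81.

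Genes shared by all epithelial cells fell as well. Of 35 junction, keratin and identity genes, 31 were tested, 29 fell and none rose, with a median difference of -3.52. Cdh1, E-cadherin, the ligand of CD103, lay at -7.33, -6.53 and -4.88 against -3.06, -2.97 and -2.60, and fell by 3.45 ± 0.51 (adjusted p = 4.3e-04 by limma). Epcam fell by 1.83 ± 0.42 (adjusted p = 0.00573), and not past the threshold after normexp background correction (-0.61, adjusted p = 0.158). The keratin gene Krt20 fell by 6.46 and the claudin gene Cldn15 by 5.40. Gata4 and Cdx1, factors of intestinal identity, also fell: Gata4 was at least 9.86-fold lower, and Cdx1 fell by 5.37 on the log2 scale. The members not called were Cldn4 (0.97) and Pigr (1.18, adjusted p = 0.114), the carrier of IgA across the epithelium. Pigr was bright on all 9 arrays, and its probes gave differences from -2.05 to 1.18.

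Goblet cells make mucus, and enteroendocrine cells release hormones. Of 19 goblet cell genes, 16 were tested, 12 fell and none rose, with a median of -2.87. Muc2, the main gel-forming mucin, lay at -8.00, -6.91 and -5.59 against -2.54, -3.59 and -2.25, at least 4.64-fold lower (adjusted p = 1.6e-04 by limma). Zg16, a lectin of the mucus, fell by 6.18 ± 0.63, and was above background on 4 Trm arrays. Of 26 enteroendocrine and tuft cell genes, 15 were tested, 13 fell and none rose, with a median of -3.92. Of those tested, 7 were above background on no Trm array and none was on every Trm array, so a rise was hardly possible. Chga, of hormone granules, was at least 11.6-fold lower and the hormone genes Cck and Sct at least 27-fold and at least 32-fold lower, none of them above background on any Trm array.

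Paneth cells, at the crypt base, make lysozyme and defensins. Of 23 Paneth and antimicrobial genes, 15 were tested, 3 fell, 1 rose and 11 were not called, with a median difference of -0.19. Lyz1, the Paneth lysozyme, lay at -0.45, 1.77 and 2.48 in Trm cells and at 1.00, 0.99 and 2.46 in whole intestine. The groups overlapped throughout (-0.20 ± 0.72, adjusted p = 0.832 by limma). Mmp7, the protease that activates defensins, overlapped too (0.54 ± 1.07, adjusted p = 0.687). Defa21, an alpha-defensin, lay at -0.70, 2.25 and 3.00 against -0.96, -0.51 and -0.11, with 5 Trm arrays above every whole array (2.21 ± 0.78, adjusted p = 0.0424). Leaving out any 1 of Trm arrays 1, 2, 4 and 5 or of the whole arrays ended that call, with adjusted p of 0.0623 to 0.129. Alpha-defensin genes are near-identical copies, so their probes may share signal.

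The 3 antimicrobial genes that fell were Reg3a, Reg1 and Reg3b, lectins that enterocytes also make. Reg3a lay at -7.83, -7.04 and -5.01 against 0.61, 0.79 and 1.11, above background on no Trm array and at least 57.6-fold lower (adjusted p = 3.1e-06 by limma). Reg1 fell by 6.02 ± 1.09 and Reg3b by 3.33 ± 0.88 (adjusted p = 0.00147 and 0.0115). Reg3g was not called (-1.54, adjusted p = 0.102), and was called at -1.85 without Trm array 1. The summed Paneth signal varied between sorted samples, from 40.4% of the whole-tissue mean on Trm array 3 and 49.1% on Trm array 6 to 130% on Trm array 1 and 142% on Trm array 2. It ranged from 83.3% to 132% on the whole arrays. Of the 17 members with a probe, 15 were above background on some intestine Trm array, against 2 on blood Tem arrays, 7 on lung Trm arrays and 3 on liver Trm arrays.

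Crypt stem cell genes numbered 18, of which 12 were tested, 6 fell and 2 rose. Lgr5, the receptor that defines these cells, was at least 1.61-fold lower in Trm cells (adjusted p = 0.00404 by limma). Ascl2, the stem cell factor, fell by 3.17. The members that rose were Cd44, which memory T cells carry (3.43 ± 0.40, adjusted p = 8.0e-05), and Bmi1, which many dividing cells express (2.82, adjusted p = 0.0161). Bmi1 was not called without whole-intestine array 1 (adjusted p = 0.0815) or array 2 (0.083).

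Ligands that the epithelium presents to intraepithelial lymphocytes and the receptors for them moved in opposite directions between the groups. Of 24 ligand genes, 11 were tested, 8 fell and 1 rose in Trm cells (median -3.45). Of 22 receptor genes, 14 were tested, 11 rose and none fell (median 4.96, or 3.77 at the bounds). Ccl25 lay at -3.28, -1.80 and 1.59 in Trm cells and at 2.58, 2.43 and 2.28 in whole intestine, and fell by 3.72 ± 0.90 (adjusted p = 0.00733 by limma), while its receptor Ccr9 rose as given above. Ccl25 stayed above background on all 6 Trm arrays, highest on Trm array 2. Cdh1 fell and Itgb7 rose. Btnl1, a butyrophilin-like protein that selects gut gamma-delta T cells, lay at -7.01, -6.64 and -5.15 against 0.78, 0.83 and 0.95, at least 58.1-fold lower. Its partner-family gene Btnl2 was at least 25.4-fold lower, the cytokine Il18 at least 10.9-fold lower, and the junction protein Cxadr fell by 4.90. Tgfb1, the cytokine that induces CD103, was the ligand that rose, at least 3.68-fold (adjusted p = 3.1e-04), and T cells make it too. The receptor Crtam differed by 5.83.

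**Figure D3:**
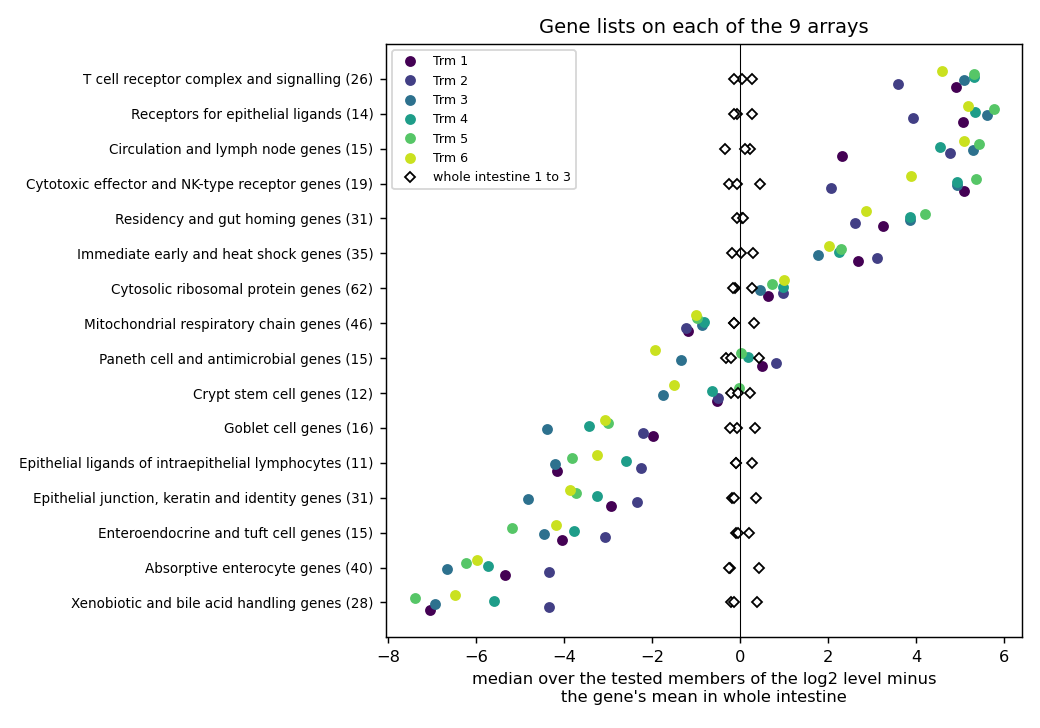
Level of each gene list on each of the 9 arrays, as the median over its tested members (their number in brackets) of the log2 level minus that gene's mean in whole intestine, with the 6 Trm arrays as coloured circles and the 3 whole-intestine arrays as open diamonds. T cell lists lie above 0 and most epithelial lists below 0 on all Trm arrays, and the Paneth list lies on both sides of 0.

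Other cell types that a magnetic sort could carry along were read array by array. Among B and plasma cell genes, 8 of 22 were tested, 1 rose and none fell. Jchain, which joins IgA and IgM units, lay at -2.19, 1.28 and 2.83 in Trm cells and at -0.31, -0.34 and 1.33 in whole intestine, overlapping throughout (0.41 ± 1.05, adjusted p = 0.754 by limma). The member that rose was Cd79b, of the B cell receptor (2.35, adjusted p = 0.00754). The defining B cell gene Ms4a1 was above background on none of the 9 arrays. The summed B and plasma signal was 62.1% to 173% of the whole-tissue mean on Trm arrays 1, 3, 4 and 5, 352% on Trm array 2 and 661% on Trm array 6. The parts of these cells in the differences above were not tested.

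Stromal and vascular genes were highest on Trm array 2. Of 26 fibroblast, matrix and smooth muscle genes, 20 were tested, 3 fell and none rose. Those were Synpo2 (-4.64, adjusted p = 0.00254), Fbln1 (-4.21) and Cnn1 (-2.62, named after its value was seen). Without Trm array 2, 13 fell and the median went from -2.05 to -2.82. Acta2 and Actg2, of smooth muscle, were then called, at -3.93 and -3.88 (adjusted p = 0.0286 and 0.0206 by limma). With all arrays they were at -3.19 and -3.16 and not called. Col1a1, the main fibrillar collagen, lay at -8.00, -4.28 and -0.13 in Trm cells and at -2.59, -3.42 and -1.32 in whole intestine, not called (-1.95 ± 1.54, adjusted p = 0.307 by limma). The summed fibroblast signal was 4.14% to 65.4% of the whole-tissue mean on the other 5 Trm arrays and 209% on Trm array 2. The endothelial signal was 20.5% to 139% on those 5 and 719% on Trm array 2, and none of its 11 tested genes of 20 was called. At an unadjusted p under 0.05 that count was also 0.

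Of 24 macrophage and dendritic cell genes, 10 were tested, 1 fell and none rose, with 2 higher at an unadjusted p under 0.05 by limma. Csf1r, the macrophage growth factor receptor, lay at -8.15, -2.68 and 0.68 against -1.53, -1.49 and -0.62, with Trm arrays 2 and 4 above every whole array, and was not called. Lyz2 was above background on none of the 9 arrays. Of 10 MHC class II genes, 7 were tested and 1 rose, H2-Oa (2.33). H2-Ab1, of the peptide-binding molecule itself, lay at -1.61, 0.23 and 1.70 against 0.72, 0.70 and 1.90 (adjusted p = 0.305). The MHC class II signal was 23.1% to 136% of the whole-tissue mean, again highest on Trm array 2, whereas the macrophage signal (63.2% to 167%) was highest on Trm array 4. Of 18 neutrophil, mast cell and eosinophil genes, 6 were tested and Siglecf fell (-3.59). Of 18 neuron and glia genes, 6 were tested and Gap43 fell (-2.32). Of 14 erythroid and platelet genes, 5 were tested and 3 globin genes fell. Hbb-bt, which was at least 10.0-fold lower, was the only one of them left when any 1 of Trm arrays 1, 4, 5 and 6 or of the whole arrays was left out. In the lists of these other cell types, leaving out 1 array also added single calls. There was 1 more higher macrophage gene (without Trm array 1 or 5 or whole array 3), neuron gene (Trm array 6, whole array 1 or 3) and neutrophil gene (whole array 3). There was 1 more lower neuron gene (Trm array 6, whole array 3), neutrophil gene (Trm array 1, whole array 3), MHC class II gene (Trm array 2 or 4) and endothelial gene (whole array 3).

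**Figure D4:**
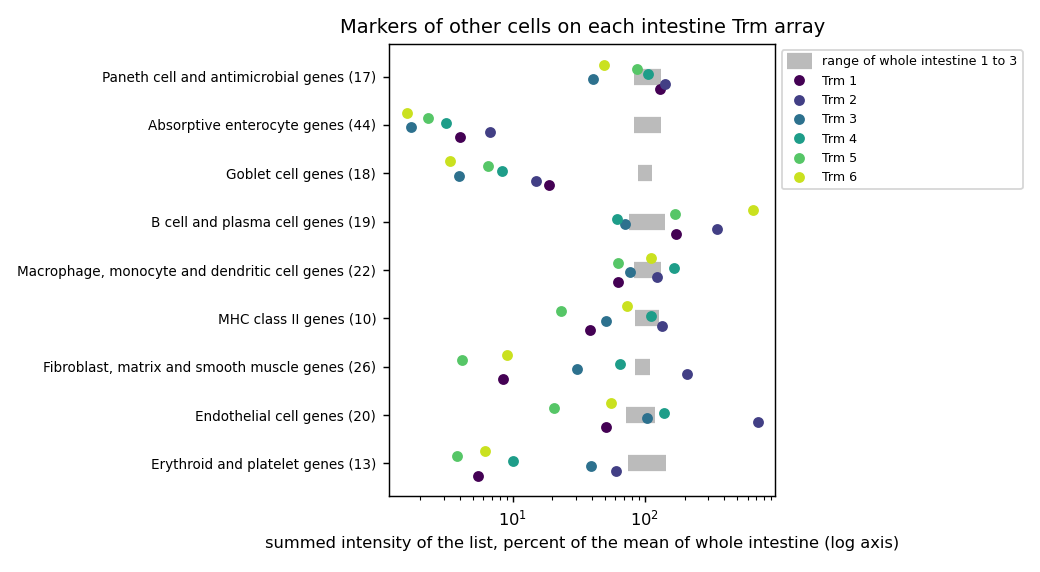
Summed signal of each cell type's gene list on each of the 6 Trm arrays (circles), as a percentage of the mean of the 3 whole-intestine arrays, on a log axis, with the range of those 3 as grey bars and the number of genes with a probe in brackets. Enterocyte signal is 1.57% to 6.77% on all Trm arrays, Paneth signal spans 40.4% to 142%, and Trm array 2 is the highest Trm array for fibroblast (209%) and endothelial (719%) genes.

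Genes shared by all cells also differed in balance. Of 63 cytosolic ribosomal protein genes, 62 were tested, 30 rose in Trm cells and none fell, with a median of 0.80. Rpl19, a protein of the large subunit, lay at 1.75, 1.95 and 2.32 in Trm cells and at 0.21, 0.18 and 0.10 in whole intestine, and differed by 1.81 ± 0.25 (adjusted p = 2.4e-04 by limma). The count was 16 without whole-intestine array 1 or array 2, 20 with scaling over all probes and 4 in a fit to all 35 arrays, where the median was 0.61. Of 46 genes of the mitochondrial respiratory chain, all were tested, 31 fell and none rose, with a median of -1.04. Sdhd, a membrane anchor of complex II, lay at -2.14, -1.88 and -1.31 against 0.31, 0.68 and -0.17, and fell by 2.09 ± 0.30 (adjusted p = 3.2e-04). Cox7a2, of complex IV, fell by 1.69 ± 0.27. The fit to all 35 arrays called 18 of them lower, and without Trm array 2, 1 rose.

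Cell division genes were mixed. Of 28 members, 18 were tested, 4 rose and 2 fell. Those that rose were Mcm3, Mcm4, Mcm5 and Mcm7, parts of the replication helicase, with Mcm4 at 1.86 (adjusted p = 0.00137 by limma). Those that fell were Ccnb1 (-2.28) and Aurka (-2.07), which act in mitosis. Mki67, the usual proliferation marker, did not pass the threshold (-0.54 ± 0.45, adjusted p = 0.332). Mcm7 was not called without whole-intestine array 1 (0.90, adjusted p = 0.12) or array 2 (0.93, adjusted p = 0.118), Trm array 3 (adjusted p = 0.0506) or Trm array 5 (0.0505), nor under 6 other settings. Without whole-intestine array 3, 7 rose and 3 fell.

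The same contrast in lung and liver was used to ask which differences were larger or smaller in the intestine. Lung (6 Trm and 3 whole arrays) and liver (5 and 3) came from mice of the same description and were processed alike. The 26 arrays were fitted together with the slide as a term, and the intestine difference minus the other organ's difference was tested. Where a gene was above background on no array of a group, the fitted values hold that group's background and only bound the difference. Against lung, 2805 of 10421 genes were called (26.9%), 1885 higher (18.1%) and 920 lower (8.83%). Against liver, 1780 were called (17.1%), 1078 higher (10.3%) and 702 lower (6.74%). Both contrasts share the intestine arrays. The median over all genes was 0.51 against lung and 0.55 against liver, and -0.07 and -0.09 with scaling over all probes. The share of higher genes among the calls then went from 67.2% to 49.1% against lung and from 60.6% to 33.7% against liver, where it was 44.4% without whole-liver array 2. Without whole-intestine array 3 the calls fell to 1716 and 1176.

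Enterocyte genes fell further in the intestine than in the other organs. The list was chosen for a cell type of whole intestine, so the direction of these contrasts was largely fixed in advance. Of 41 tested there, 36 were lower in the intestine contrast than in lung and 29 than in liver, with 1 higher than in lung, with medians of Trm minus whole organ of -6.06 in intestine, -0.11 in lung and -0.40 in liver. Lct differed by -9.11 in intestine, -0.13 in lung and -0.66 in liver, and the contrasts were -8.98 ± 1.02 and -8.46 ± 1.05 (adjusted p = 1.5e-05 and 3.8e-05 by limma). Ada, adenosine deaminase, which enterocytes hold at high levels, had contrasts of -9.94 ± 0.87 and -7.19 ± 0.89. Its fitted difference was -6.89 in intestine, 3.04 in lung and 0.53 in liver, and it was above background on no whole-lung, whole-liver or liver Trm array. Lct was above background on no Trm array of the 3 organs and on no whole-lung array. Xenobiotic genes had median differences of -6.73 in intestine, -4.20 in liver and -0.13 in lung, and 7 of 29 were called lower against liver, or 13 with scaling over all probes or without intestine Trm array 2. Of 15 Paneth genes, the 3 called lower against either organ were Reg1, Reg3a and Reg3b, and Lyz1 was not called (1.14, adjusted p = 0.462 and -1.37, adjusted p = 0.415).

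Residency genes rose more in the intestine than in lung for 14 of 32 and than in liver for 12, with 1 lower, and medians of 2.77, 0.57 and 0.65. The count against lung was 11 to 16 under 3 other scalings and without whole-intestine array 3, intestine Trm array 2, both or whole-liver array 2. Against liver it was 9 without whole-intestine array 3 and 6 after quantile normalization or without whole-liver array 2. Ahr was higher in Trm cells than in whole organ in intestine (2.22) and lower in lung (-4.10) and liver (-2.62). The contrasts were 6.32 ± 0.85 and 4.88 ± 0.87 (adjusted p = 7.0e-05 and 8.8e-04 by limma). Ctla4, an inhibitory receptor, had differences of 2.62, -4.58 and -3.22 and contrasts of 7.20 ± 0.87 and 5.79 ± 0.89. For both genes the level in Trm cells was highest in intestine and the level in whole organ lowest there. Ctla4 lay at -0.55 in whole lung and -0.67 in whole liver. Those levels were above its means in lung (-5.13), liver (-3.89) and intestine (-2.12) Trm cells. What its probe reads in those whole organs was not tested.

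Of the homing receptors, Ccr9, Itgb7 and Cxcr6 did not pass the threshold in these contrasts. Ccr9 differed by 6.33 in intestine, 6.91 in lung and 5.59 in liver, with contrasts of -0.57 ± 1.02 and 0.69 ± 1.04 (adjusted p = 0.707 and 0.681 by limma). The mean level of Ccr9 was -7.47 in whole lung and -6.69 in whole liver, and that of Cxcr6 was -7.34 in whole liver. Where such dim levels are background, these contrasts do not show that the differences are alike. Itgb7 differed by 3.91, 2.92 and 4.89, with contrasts of 0.99 ± 0.53 and -1.03 ± 0.54, and the liver contrast was called without whole-liver array 2 (-1.72, adjusted p = 0.0182). Cd69 was above background on no whole array of the 3 organs, so its differences are bounds and no contrast is given. Cxcr6 had contrasts of 1.83 ± 0.71 (adjusted p = 0.0643) and 0.34 ± 0.72. The lung contrast was called without intestine Trm array 2 (adjusted p = 0.0304) or without whole-liver array 2 (0.0491). Cxcr3, the receptor for interferon-induced chemokines, passed in both, by 3.33 ± 0.99 against lung (adjusted p = 0.0197) and 3.31 ± 1.01 against liver (adjusted p = 0.0323), with above-background signal on no whole-lung or whole-liver array. Its calls ended under the 3 other scalings (adjusted p of 0.057 to 0.0776 against lung and 0.113 to 0.13 against liver). Against lung the call also ended without whole-intestine array 2 (0.064). Against liver it ended without any 1 of Trm arrays 3 and 6 and the whole-intestine arrays (0.0506 to 0.0949) or without whole-liver array 2 (0.113).

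Among circulation genes, the difference of Klf2 was larger in the intestine than in lung. Klf2 differed by 5.03 in intestine, 1.61 in lung and 5.01 in liver (3.42 ± 0.51 against lung, adjusted p = 1.7e-04 by limma, and 0.08 ± 0.52 against liver, adjusted p = 0.937). S1pr1 was above background on no whole-intestine or whole-liver array, and its fitted contrast of 3.80 ± 0.67 against lung (adjusted p = 7.2e-04) rests on that background. The same holds for Ccr7 (2.85 ± 0.50, adjusted p = 6.6e-04), above background on 1 of the 3 whole-lung arrays. For Klf2 and S1pr1 whole lung held more than whole intestine, with mean levels of -0.65 against -4.87 for Klf2 and -3.91 against -8.83 for S1pr1. Emb, above background on 1 whole-intestine and no whole-liver array, differed by 7.10, 0.62 and 6.61, and its contrast with lung was 6.48 ± 0.71 (adjusted p = 1.1e-05).

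For Gzma and Fos the difference was smaller in intestine than in liver. Gzma differed by 0.44 in intestine, -1.50 in lung and 4.90 in liver (-4.37 ± 1.00 against liver, adjusted p = 0.00608 by limma), and its whole-organ level was 1.02 in intestine and -6.07 in liver. Fos differed by 2.07 in intestine, 6.77 in lung and 4.78 in liver (-4.70 ± 0.46 and -2.74 ± 0.47, adjusted p = 3.9e-06 and 7.1e-04). Its level in whole intestine was -3.47, against -8.11 in whole lung and -7.59 in whole liver, where no array was above background, whereas the Trm levels lay between -2.81 and -1.34. Mitochondrial genes were lower in the intestine contrast than in lung for 28 of 46 (18 without whole-intestine array 3) and than in liver for 1 (5 after quantile normalization, none without whole-intestine array 3). Endothelial genes went the other way, 11 of 16 higher against lung (8 without whole-intestine array 3) and none against liver (0 also at an unadjusted p under 0.05), with medians of 0.17 in intestine, -4.59 in lung and -0.96 in liver.

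**Figure D5:**
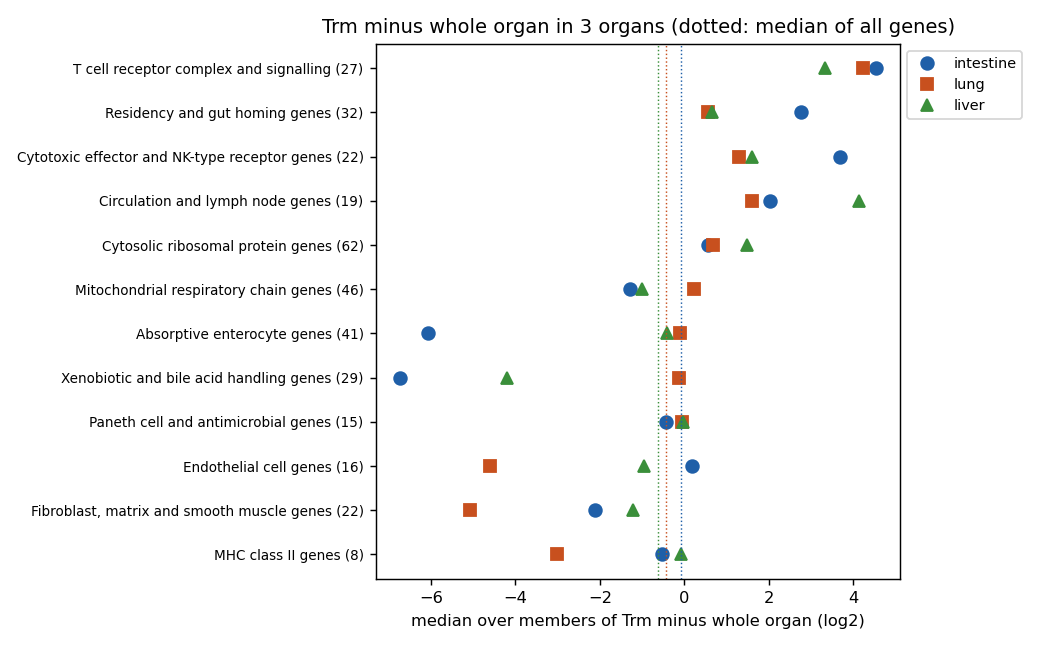
Median over the members of each gene list of Trm minus whole organ (log2) in intestine (blue circles), lung (orange squares) and liver (green triangles), with the number of tested members in brackets and dotted lines at the median of all genes in each organ. Enterocyte genes lie at -6.06 in intestine and near 0 in lung and liver, and residency genes at 2.77 in intestine against 0.57 and 0.65.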

How the data were processed

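RNA (300 pg, integrity number above 8) was amplified in 2 rounds and labelled with Cy3, per the labels' protocols. The authors deposited scanner files, whose spot intensity was background-subtracted and detrended by Feature Extraction 11.0.1.1, per the file headers, and a table of log2 values. The submitters' processing notes name Agilent Feature Extraction 10.7 and Partek. The deposited log2 values matched quantile-normalized intensities (largest median absolute difference 0.000592), and every column had a median of 8.55.

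The 43020 spots hold 39429 probes. A RefSeq gene table (GRCm38.p6) gave a gene symbol to 27508 of them through their accessions (20886 genes), and 11921 had none. Log2 intensities were scaled to each array's 75th percentile as described. A probe was kept when 3 or more arrays of either group had it well above background, and the probe with the highest mean stood for a gene, leaving 8550 genes. The 9 arrays were fitted with limma 3.58.1 in R 4.3.3, with 1 mean per group. P-values are two-sided and adjusted over all genes by Benjamini-Hochberg, with a call under 0.05. The script was tested on simulated data. The number of arrays limits the precision.

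For the organ contrasts, 26 arrays on 9 slides were fitted with the slide as a term (10421 genes). Summed signals add linear intensities over a list's probes.

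Members, lists and tests were chosen with earlier results of these data known. Genes were named by rule: the 10 called genes with the largest difference each way that were bright on every array of the higher group, up to 5 and 3 members of each list in its main and other direction, a fixed set of marker genes, and the 8 called genes with the largest organ contrast each way. Others are said to be named after their values were seen. Itgae, Zfp683 and Olfm4 had no matched probe, and some genes that these rules name are not reported here.

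Alternatives were scaling over all probes, quantile normalization, the deposited values, normexp with an offset of 50, no filter and a stricter filter. Others were a 2-fold minimum, the mean of a gene's probes and array weights. All 35 arrays were also fitted, without and with the slide as a random block. The replicate number was used as a block, the slide term was dropped from the organ contrasts, and each intestine array was left out. In the organ contrasts whole-liver array 2 was left out too, but no lung array and no other liver array. Normexp used the median spot column, since the files here hold no mean column.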

Additional observations from a re-analysis of the deposited data

Results flagged for a closer look

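Within the 6 Trm arrays, 145 sets of values (117 genes, 27 list levels and the share of bright probes) were screened for 1 array far from the rest by Dixon's test, and 14 stood out. Chance alone flags about 1 set in every 20 screened, and the sets share arrays, so chance could give some of these flags. Trm array 2 accounts for 9 of them. It was lowest for Gzmb (-4.35, others -0.73 to 1.43), Gzma (0.23, others 2.22 to 3.27), Icos (-1.12, others 0.06 to 0.70) and Ptprc (-3.24, others -1.41 to -0.66). It was highest for Lct (-4.32, others -7.89 to -6.56), Sis (-4.03, others -7.80 to -6.48), Btnl1 (-5.15, others -7.01 to -6.42), Fbln1 (-3.44, others -5.34 to -5.06) and Synpo2 (-3.04, others -8.09 to -6.59).

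Single values stood apart on other arrays. Lax1 was high on Trm array 1 (-2.13, others -4.08 to -3.65), where the level of the circulation list was low (2.32, others 4.54 to 5.43). Tgfb1 was low on Trm array 4 (-5.27, others -4.26 to -3.86) and Mcm3 on Trm array 6 (-2.56, others -1.65 to -1.38). Trm array 5 had 35.5% of probes well above background, against 21.7% to 26.7% on the others.

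The Trm-minus-whole difference of several genes differed between organs by the test of the contrast itself (limma, adjusted p under 0.05). Larger differences in intestine were those of Ahr (by 6.32 against lung and 4.88 against liver), Ctla4 (7.20 and 5.79), Emb (6.48, lung), Klf2 (3.42, lung), S1pr1 (3.80, lung), Ccr7 (2.85, lung) and Cxcr3 (3.33 and 3.31). Smaller or more negative ones were those of Gzma (-4.37, liver), Fos (-4.70 and -2.74), Lct (-8.98 and -8.46), Ada (-9.94 and -7.19) and Reg3a (-7.67 and -7.46). The values of S1pr1, Ccr7, Cxcr3, Emb, Fos, Lct, Ada and Reg3a rest in part on groups with no array above background.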

How the results depend on the processing

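Array weights raised the intestine calls from 3652 to 5866 (2692 higher, 3174 lower), and no filter put the higher count at 2737. The replicate block, over arrays 1 to 3 of each group, gave 2341 calls (940 higher), and the same arrays without it 2540 (1003 higher). No label says whether the replicate numbers pair the samples. Same-number correlations of deviations were 0.215, -0.0635 and 0.180, and those of different numbers ranged from -0.238 to 0.214. With 3 arrays per group these cannot show whether samples were paired. Without 1 array the counts were 2761 to 3935 in all, 1173 to 1743 higher and 1588 to 2192 lower. In the organ contrasts, only the intestine arrays and whole-liver array 2 were left out, 1 at a time. Leaving out a lung array or another liver array was not tested. Against lung the counts were 1716 to 2981, 1144 to 1992 higher and 572 to 989 lower, each lowest without whole-intestine array 3. Without that array and Trm array 2, chosen after seeing the data, they were 1737 (1121 higher). Against liver they were 1176 to 1819, 675 to 1084 higher and 469 to 844 lower; whole-intestine array 3 gave 1176 (707 higher) and whole-liver array 2, also chosen later, 675 higher. Scaling over all probes gave 1251 higher against lung and 527 against liver, and quantile normalization and the deposited values 1138 and 1145 lower against liver. Without the slide term (no replicate block) calls were 3236 and 2247. The cause of these shifts was not tested. Of 117 genes named, 1 changed direction with a call in either fit (Nr1i3, -1.81 as the mean of its probes). Some genes never called also had differences on both sides of 0 between settings. These were Pigr (-0.44 to 1.56), Lyz1 (-0.44 to 0.29), Fosl2 (-0.36 to 0.54), Gsta4 (-0.36 to 0.53) and Jchain (-0.02 to 0.98). Slide and group cannot be told apart in the intestine contrast, and probes never above background in either group were higher in Trm cells by 1.14 in median (0.0348 after quantile normalization), so small differences among dim genes are limited by signal over background.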
